A study of Mus musculus with 4 samples.

Results

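Interferon-stimulated genes, which cells switch on when they sense interferon or foreign nucleic acid, were followed across the cell classes of the mouse kidney. The 40 genes were taken by symbol from a list of interferon-induced genes. Of these, 38 were analysed, and Mx1 and Mx2 were not analysed here. RNA was read from single kidney cells of 2 mutant mice, whose mitochondrial gene TrnE (the transfer RNA for glutamate) carries a point mutation, and of 2 wild-type C57BL/6J mice. The mutation was present in a share of the mitochondrial DNA copies, given as a load of 79% in mutant 1 and 76% in mutant 2. No source used here gives the tissue in which the load was measured, or the ages and litters of the mice. Whole kidneys were digested to single cells, sorted for viability and sequenced with a droplet 3′ kit, so each value below is a number of unique molecular identifiers (UMIs), or that number scaled to the UMI total of the same cells (CPM). With 2 mice a group, the p-value of a comparison within a class rests on the spread between these mice, unless stated otherwise.

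Type I interferons bind the receptor of IFNAR1 and IFNAR2, and the signal ends at the interferon-stimulated response element in promoters, which a complex containing STAT2 and IRF9 binds. Interferon gamma, made by T cells and NK cells, acts through IFNGR1 and IFNGR2 and leads to the gamma-activated site in promoters. The induced proteins include sensors of viral nucleic acid, effectors that block translation or membrane fusion, GTPases that attack the vacuoles of intracellular pathogens, and transcription factors that extend the response. DNA and RNA released from mitochondria are known to engage the same sensors as viral nucleic acid.

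Promoters of 7 members are shown: Isg15, which was called in the genotype comparison, Rsad2, the most endothelial member, the neighbouring Ifit genes, and Igtp and Irf1 for the gamma-activated motif. RefSeq promoter windows (GRCm38.p6), from 250 bases before to 50 bases after a transcription start, were matched by symbol for 29 of the 40 members; Gbp4, Iigp1, Rtp4, Dhx58, Mx1, Mx2, Zbp1, Oas2, Ifi27l2a, Usp18 and Parp14 had no entry. The core of the response element was searched as TTTCNNTTTC on either strand (GAAANNGAAA on the other), and overlapping matches were counted separately. The core of the gamma-activated site was searched as TTCNNNGAA, which reads the same on both strands. The 200 bases before the start are printed in the direction of transcription, with the motif letters in capitals.
Isg15, chr4:156200819-156201018, minus strand: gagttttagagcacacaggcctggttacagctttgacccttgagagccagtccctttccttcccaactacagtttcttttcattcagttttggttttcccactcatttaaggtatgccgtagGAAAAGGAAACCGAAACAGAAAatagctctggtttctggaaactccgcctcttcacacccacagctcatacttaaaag
Ifit1, chr19:34640689-34640888, plus strand: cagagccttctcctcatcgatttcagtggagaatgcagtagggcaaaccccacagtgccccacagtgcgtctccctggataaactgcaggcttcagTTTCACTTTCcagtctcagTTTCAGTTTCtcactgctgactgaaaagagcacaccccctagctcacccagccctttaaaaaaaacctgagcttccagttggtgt
Ifit3, chr19:34583329-34583528, plus strand: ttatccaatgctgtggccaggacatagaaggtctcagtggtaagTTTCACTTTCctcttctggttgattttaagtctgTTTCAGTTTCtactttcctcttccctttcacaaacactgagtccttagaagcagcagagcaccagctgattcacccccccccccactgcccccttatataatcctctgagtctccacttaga
Ifit3b, chr19:34607757-34607956, plus strand: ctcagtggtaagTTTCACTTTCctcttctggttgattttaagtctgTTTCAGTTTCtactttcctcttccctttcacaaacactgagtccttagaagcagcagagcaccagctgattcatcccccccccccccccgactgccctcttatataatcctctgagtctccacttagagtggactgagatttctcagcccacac
Rsad2, chr12:26456453-26456652, minus strand: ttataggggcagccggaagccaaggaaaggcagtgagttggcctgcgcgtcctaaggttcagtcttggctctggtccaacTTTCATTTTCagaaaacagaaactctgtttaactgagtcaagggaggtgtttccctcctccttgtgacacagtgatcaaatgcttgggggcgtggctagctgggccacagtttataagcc
Igtp, chr11:58199356-58199555, plus strand: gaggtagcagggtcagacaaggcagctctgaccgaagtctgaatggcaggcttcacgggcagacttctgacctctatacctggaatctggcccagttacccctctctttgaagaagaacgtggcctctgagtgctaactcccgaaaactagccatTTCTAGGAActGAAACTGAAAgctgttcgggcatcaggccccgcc
Irf1, chr11:53769814-53770013, plus strand: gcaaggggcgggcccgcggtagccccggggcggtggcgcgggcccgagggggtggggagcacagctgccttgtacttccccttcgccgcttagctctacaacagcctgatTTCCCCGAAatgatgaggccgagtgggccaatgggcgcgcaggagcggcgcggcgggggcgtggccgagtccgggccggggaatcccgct
Isg15 held 3 overlapping response element cores, and Ifit1, Ifit3 and Ifit3b held 2 each. Igtp held a response element core beside a gamma-activated core, and Irf1 held only a gamma-activated core. Ifit3 and Ifit3b are neighbouring copies on chromosome 19 whose windows, aligned without gaps at their first motif, were identical at 201 of 268 bases. A run of C that differs in length shifts the bases after it, so this count understates how alike the windows are. The UMIs of Ifit3 and Ifit3b may be split between them by the counting. Across the members, 17 of 29 (58.6%) held a response element core, against 3.99% of all 27025 genes with a window. A gamma-activated core was found in 9 of 29 members (31.0%), against 9.55% of all genes, and 8 members held neither in these windows. Response element cores were present in 5 of 6 GTPases and in 5 of 9 RNA-binding and 2-5A effectors, but in 1 of 4 transcription factors.

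**Figure D1:**
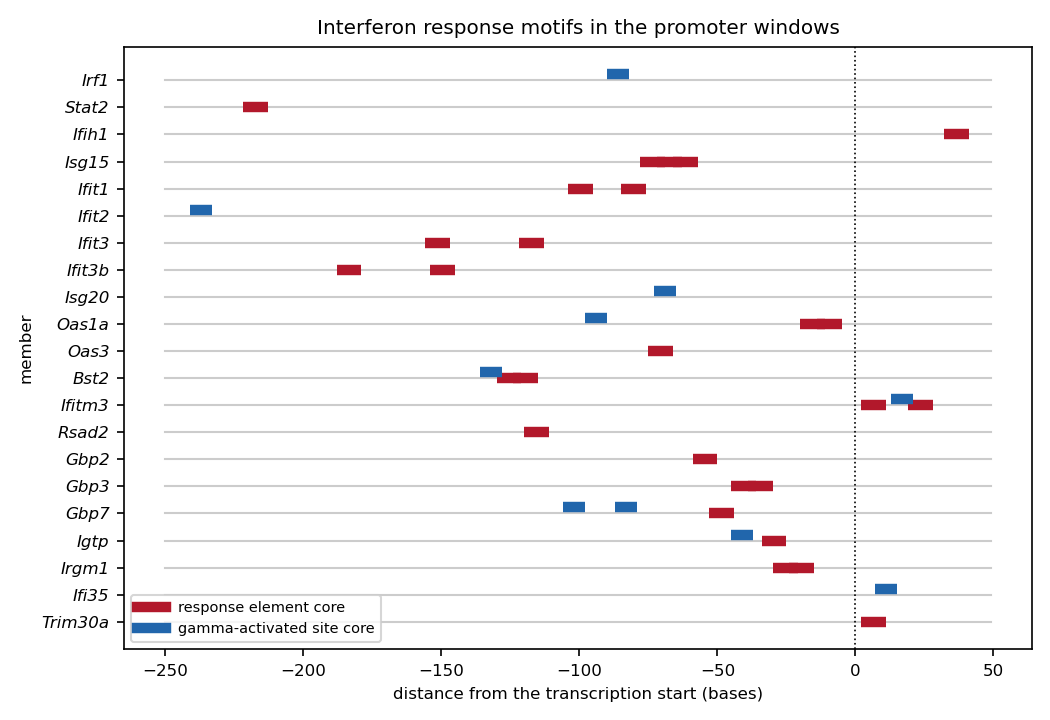
Position of motif cores in the promoter windows of the 21 members that hold at least 1 (x axis, bases from the transcription start; red, response element core; blue, gamma-activated site core; 1 window per gene, the one with the most matches). Most red marks lie in the 160 bases before the start.

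After cell filters and removal of doublet calls, 9535 and 8916 cells of mutants 1 and 2, and 5671 and 6306 cells of wild types 1 and 2, were kept, with median depths of 4366 to 6466 UMIs. They formed 35 clusters, which gave 14 classes named by marker genes, and 2485 cells stayed unnamed. Wild type 2 stood apart in its makeup: it gave 57 macrophages and 38 endothelial cells, against 2762 and 1754 macrophages in the mutants and 819 in wild type 1. It also held the most proximal tubule cells, 2958, against 1891 and 999 in the mutants. Pairs of libraries shared 12 to 20 cell barcodes. Mutant libraries were counted with Cell Ranger 7.0.0 and wild-type libraries with 7.1.0, so the software version and the genotype cannot be told apart. The deposited name of wild-type library 1 is built like that of a mutant library, and the deposited name of mutant library 1 carries another mutation load than its label; the labels were followed in both cases. The members were left out of the genes used for clustering, and each tested class held its own markers in every library.

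The 38 members were most abundant in endothelium and myeloid cells and least in the tubule. Their summed level averaged 8959 CPM in endothelium, 7734 CPM in monocytes, 4984 CPM in macrophages, 4501 CPM in neutrophils (not tested), 3860 CPM in dendritic cells, 2881 CPM in T cells and 2494 CPM in NK cells. Plasmacytoid dendritic cells, the specialised producers of type I interferon, averaged 6769 CPM, with 2 cells in wild type 2, and were not tested. B cells averaged 1198 CPM, plasma cells 676 CPM, and the proximal tubule, the thick ascending limb, the intercalated cells and the distal convoluted and connecting tubule 333, 352, 421 and 447 CPM. Neighbours in this order overlapped in their ranges over the 4 libraries for many pairs, among them endothelium and monocytes, and the 4 tubule classes among themselves. Ifitm3 alone gave 26.3% of all member UMIs, Ifi27l2a 14.6% and Bst2 9.32%, so the sums mainly follow these abundant members. Over all cells of a library the members summed to 3782 and 4429 CPM in the mutants, against 3197 and 846 CPM in the wild types, and the lowest value belongs to the library with few endothelial and myeloid cells.

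**Figure D2:**
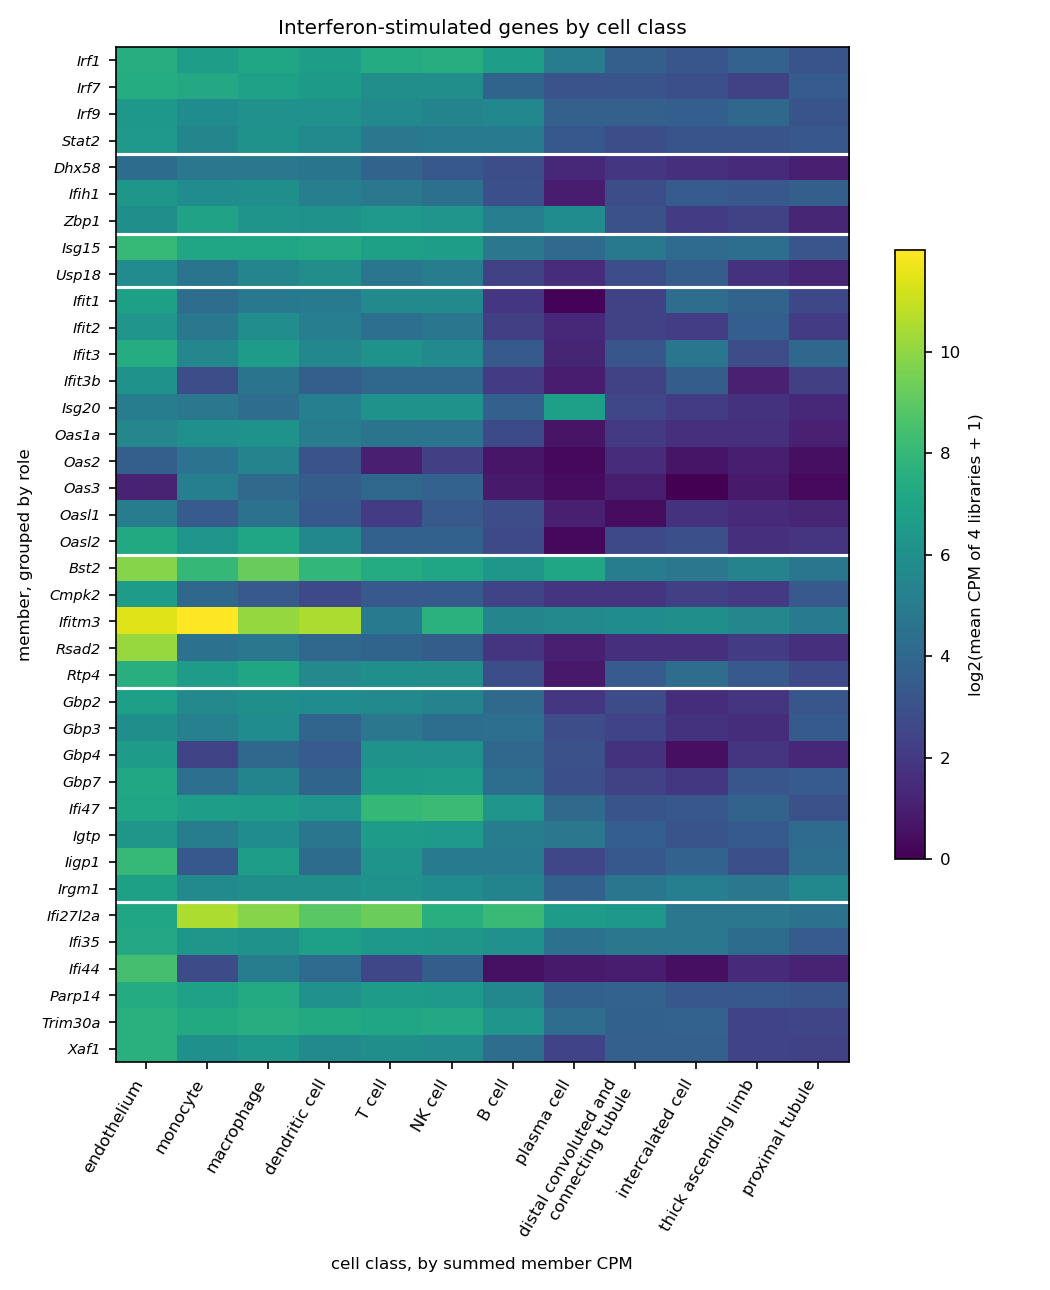
Mean level of each of the 38 members (rows, grouped by role; log2 of the mean CPM of 4 libraries plus 1) in the 12 tested classes (columns). Endothelium holds the highest mean of 26 members, and most members are lowest in the tubule or plasma cell columns.

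By role, endothelium held the highest mean of 26 of the 38 members, and led in every library for 14 of them. Rsad2 (ENSMUSG00000020641, chromosome 12, 26442746 to 26456452, minus strand, GRCm38), which encodes viperin, an enzyme that makes a chain-terminating nucleotide, averaged 1127 CPM in endothelium and 26.6 CPM in the next class, macrophages, a ratio of 42.4. Cmpk2, a nucleotide kinase encoded beside Rsad2, averaged 94.99 CPM in endothelium and 15.8 CPM in monocytes. Ifi44, an interferon-induced protein of unsettled function, averaged 351 CPM in endothelium and 32.2 CPM in macrophages. For these 3 genes, and for Gbp7, Iigp1 and Oas3, the range of the leading class lay apart from that of the next class. The antiviral membrane protein Ifitm3 was highest in monocytes in every library (mean 4094 CPM), followed by endothelium (2765 CPM), and lowest in T cells (30.3 CPM). Ifi27l2a, which encodes a small interferon-induced protein, led in monocytes in every library (1473 CPM), and so did Zbp1, a sensor of Z-form nucleic acid (121 CPM).

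Among the 2-5A synthetases, which make the activator of RNase L, Oas1a (68.3 CPM) and Oas2 (39.9 CPM) led in macrophages in every library, and Oas3 in monocytes (35.8 CPM). The GTPase Ifi47 (287 CPM) and the transcription factor Irf1 (179 CPM) averaged highest in NK cells, and the GTPase Igtp (95.4 CPM) in T cells, each overlapping the next class. The exonuclease Isg20 averaged highest in plasma cells (109 CPM). Usp18, the protease that removes ISG15 from its targets and dampens receptor signalling, averaged highest in dendritic cells (59.99 CPM), although endothelium led in 3 of 4 libraries. These levels are in CPM with no division by length, since a 3′ kit counts each molecule once whatever the length of its transcript.

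Member transcripts were spread over nearly all endothelial cells and monocytes but over few tubule cells. With each cell thinned to 2000 UMIs, 98.5% and 98.8% of endothelial cells in the mutants, against 99.6% and 97.1% in the wild types, held at least 3 member UMIs. The same held for 94.5% and 92.2% of macrophages in the mutants, against 89.9% (95% Clopper-Pearson interval 87.6 to 91.9) and 88.2% (76.1 to 95.6) in the wild types. In the proximal tubule the share was 4.78% (3.76 to 5.98) and 7.95% (6.25 to 9.94) in the mutants, against 2.86% (2.05 to 3.88) and 1.61% (1.17 to 2.16) in the wild types. Both mutants were above both wild types there. Unthinned, the shares were 16.0% and 23.1% in the mutants, against 9.19% and 17.2% in the wild types, and these overlap. Cells shallower than 2000 UMIs were left out, 385 and 119 proximal tubule cells of the mutants and 138 and 284 of the wild types. Intervals cover counting error only, and free RNA gives UMIs in cells that do not express a gene. The tenth of proximal tubule cells with the most member UMIs held 70.3% and 67.7% of them in the mutants, against 64.9% and 55.4% in the wild types.

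**Figure D3:**
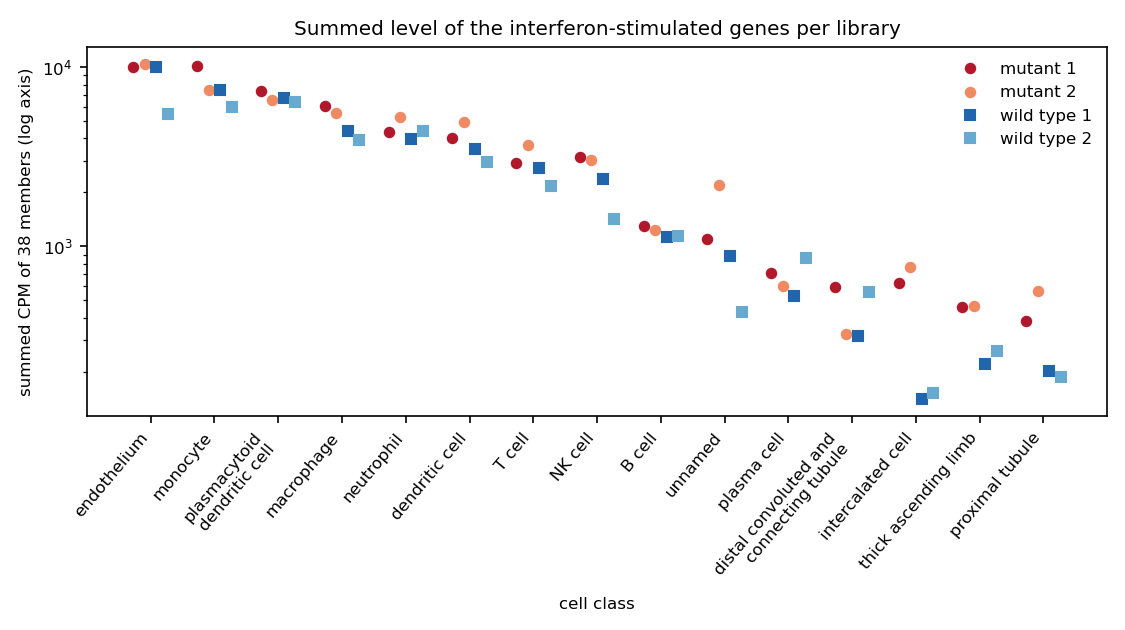
Summed CPM of the 38 members (y axis, log scale) per library in each class and in the unnamed clusters, from the highest to the lowest class (circles, mutants; squares, wild types). Both mutants lie above both wild types in macrophages, dendritic cells, T cells, NK cells, B cells, intercalated cells, thick ascending limb and proximal tubule, and also in endothelium, where mutant 1 (9977 CPM) is nearly level with wild type 1 (9962 CPM), and in monocytes, where mutant 2 (7437 CPM) is nearly level with wild type 1 (7426 CPM).

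The mutants were then compared with the wild types within each class, on UMIs summed per mouse and scaled between libraries (TMM), with edgeR's quasi-likelihood test adjusted over all genes of the class. The scaled CPM below therefore differ slightly from the levels above. A gene was called at an adjusted p under 0.05. Of the 12 classes tested, 5 calls of members were made, all higher in the mutants and all in tubule classes: 2 in the proximal tubule, 2 in the thick ascending limb and 1 in intercalated cells. Of these, Ifi47 in the thick ascending limb and Ifitm3 in intercalated cells passed the low-count filter only through the mutants, and their calls are given as counts rather than as support. The members stood above the rest of the genes in most classes without single members passing the test. In the 8 classes with at least 30 members above the low-count filter, the median log2 fold change of the members lay between 0.26 (endothelium) and 1.37 (proximal tubule), while the median of all genes tested lay between -0.04 and 0.04. Scaled to library totals instead, the median of all genes in these classes lay between -0.31 and -0.05 and that of the members between 0.16 and 1.12, and no member was called in any class.

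**Figure D4:**
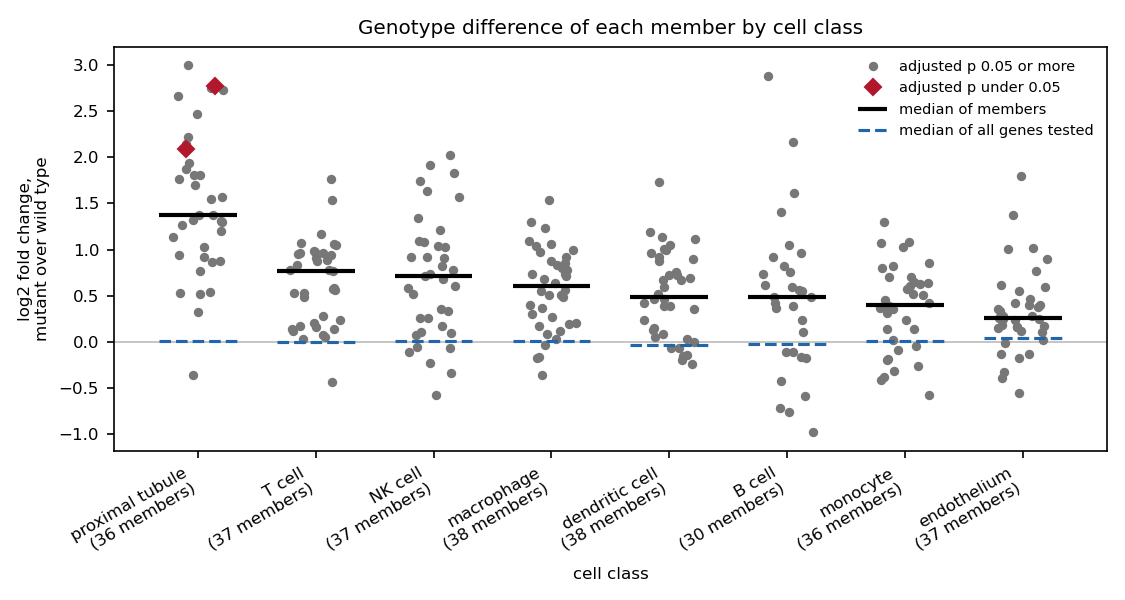
Log2 fold change, mutant over wild type (y axis), of each member in the 8 classes with at least 30 members tested (points; red diamonds, adjusted p under 0.05; black bars, members' median; dashed blue bars, median of all genes). The proximal tubule has the highest member median, 1.37, and endothelium the lowest, 0.26.

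In the proximal tubule, the reabsorbing segment that makes up most of the kidney cortex, Isg15 and Ifi27l2a rose in the mutants. Isg15 (ENSMUSG00000035692, chromosome 4, 156199424 to 156200818, minus strand), the ubiquitin-like modifier whose promoter opens the sequences above, measured 15.7 and 13.7 CPM in the mutants, against 3.23 and 1.36 CPM in the wild types, from 197, 67, 29 and 45 UMIs. The groups did not overlap (log2 fold change 2.78, SE 0.46, adjusted p = 0.0396, edgeR). Its UMIs came from 60 and 33 cells of the mutants and 14 and 26 cells of the wild types, with up to 36, 15, 14 and 8 in 1 cell. Ifi27l2a (ENSMUSG00000079017, chromosome 12, 103442167 to 103443680, minus strand) measured 42.1 and 28.3 CPM in the mutants, against 9.24 and 7.52 CPM in the wild types. Its log2 fold change was 2.09 (SE 0.36, adjusted p = 0.0396, edgeR), again with no overlap. Its UMIs came from 182 and 83 cells of the mutants and 43 and 144 cells of the wild types, with up to 59, 20, 13 and 36 in 1 cell. Cells with leukocyte or endothelium marker UMIs, described below, held 448 of 530 and 83 of 138 in the mutants, against 54 of 83 and 144 of 249 in the wild types. These 2 of 36 members tested compare with 51 of 13199 genes called in this class, or 0.386%. An unadjusted p under 0.05 was reached by 23 members and by 1108 of the 13199 genes, and DESeq2 called 6 members among 94 of 21564 genes. With doublet calls kept both calls were lost, at log2 fold changes of 2.79 for Isg15 (adjusted p = 0.0904, edgeR) and 1.76 for Ifi27l2a (adjusted p = 0.113, edgeR), and 1 of 13271 genes was called. With library totals in place of the scaling factors no gene was called.

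The 3 most abundant members here did not pass. Ifitm3, which blocks fusion of viruses with endosomes, measured 60.8 and 45.5 CPM in the mutants, against 18.9 and 4.65 CPM in the wild types (log2 fold change 2.22, SE 0.51, adjusted p = 0.0788, edgeR). Bst2, or tetherin, which holds budding virions on the cell surface, measured 36.2 and 46.3 CPM in the mutants, against 17.1 and 7.46 CPM in the wild types (log2 fold change 1.77, SE 0.41, adjusted p = 0.0788, edgeR). Irgm1, a GTPase that regulates the other members of its family, was the most abundant member here, at 37.99 and 103.6 CPM in the mutants, against 38.2 and 20.5 CPM in the wild types, and its groups overlapped. In all, 35 of the 36 members tested had a positive log2 fold change, and in 27 both mutants were above both wild types, as they were for 20.3% of all genes of the class. All 8 GTPases were positive, with medians of 1.60 for this group, 1.59 for the 6 other interferon-induced members, 1.57 for the 5 other antiviral effectors and 1.08 for the 8 RNA-binding and 2-5A effectors. Stat2 (log2 fold change -0.35, SE 0.47) was the exception, and Oas2 and Oas3 were below the low-count filter.

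Of the 8 proximal tubule clusters, the 2 largest, led by Cyp4a10 and by Spp2, summed to 394 and 500 CPM and to 332 and 476 CPM in the mutants, against 208 and 163 CPM and 144 and 205 CPM in the wild types. In the cluster led by Hpd the groups overlapped, at 207 and 537 CPM in the mutants, against 170 and 224 CPM in the wild types. The calls in the proximal tubule depended on single mice. Without wild type 2 none of 13310 genes was called, though Isg15 and Ifi27l2a kept log2 fold changes of 2.18 and 1.93 and the members a median of 1.26. Without wild type 1 there were 17 members among 2004 of 14441 genes. Without mutant 1 there were 7 members among 108 of 13796 genes, Ifi27l2a not among them, and without mutant 2 there were 3 among 119 of 14383. Over these 4 fits the members' median log2 fold change was 0.88 to 1.77, against 1.37 with all mice. In each such fit the single mouse of a group was taken to vary like the others. Leukocyte and endothelium markers also summed higher in both mutants, at 881 and 540 CPM, against 269 and 238 CPM in the wild types. Between mutants 1 and 2 their order was the reverse of that of the members, which summed to 383 and 561 CPM. Proximal tubule cells with at least 3 UMIs over 76 markers of those cells made up 27.9% and 27.1% of the class in the mutants, against 6.65% and 25.3% in the wild types, and they held 60.8% and 56.5% of the member UMIs in the mutants, against 25.3% and 49.4% in the wild types. Of the marker lists, the 11 macrophage markers summed to 1846 and 1613 CPM in the mutants, against 1093 and 521 CPM in the wild types, none at 0, and the 11 T cell markers to 87.1 and 188 CPM, against 33.3 and 38.3 CPM, none at 0. The macrophage list includes Apoe and Cd81, which tubule cells express as well.

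Leaving those cells out, an alternative chosen after seeing the data, the summed member level was 293 and 418 CPM in the mutants, against 175 and 152 CPM in the wild types. Deeper cells were removed in this way, and the part of depth in the change was not tested. Of 27 members then tested, 8 were called, all higher in the mutants, among 157 of 12119 genes (1.3%), and both earlier calls were among the 8. Isg15 measured 17.6 and 9.35 CPM in the mutants, against 3.27 and 0.851 CPM in the wild types (log2 fold change 2.87, SE 0.51, adjusted p = 0.000106, edgeR). The GTPases Gbp2 (log2 fold change 3.01, SE 0.53), Iigp1 (2.46, SE 0.44) and Igtp (1.89, SE 0.43) were called in this setting, as were Ifitm3 (2.34, SE 0.44), Xaf1 (2.72, SE 0.63), Bst2 (1.81, SE 0.42) and Ifi27l2a (1.90, SE 0.44). Gbp2, Iigp1 and Igtp were highest in mutant 2, at 25.4, 53.9 and 41.5 CPM, against 4.30, 16.1 and 14.4 CPM in mutant 1. The part of free RNA in these values was not tested.

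**Figure D5:**
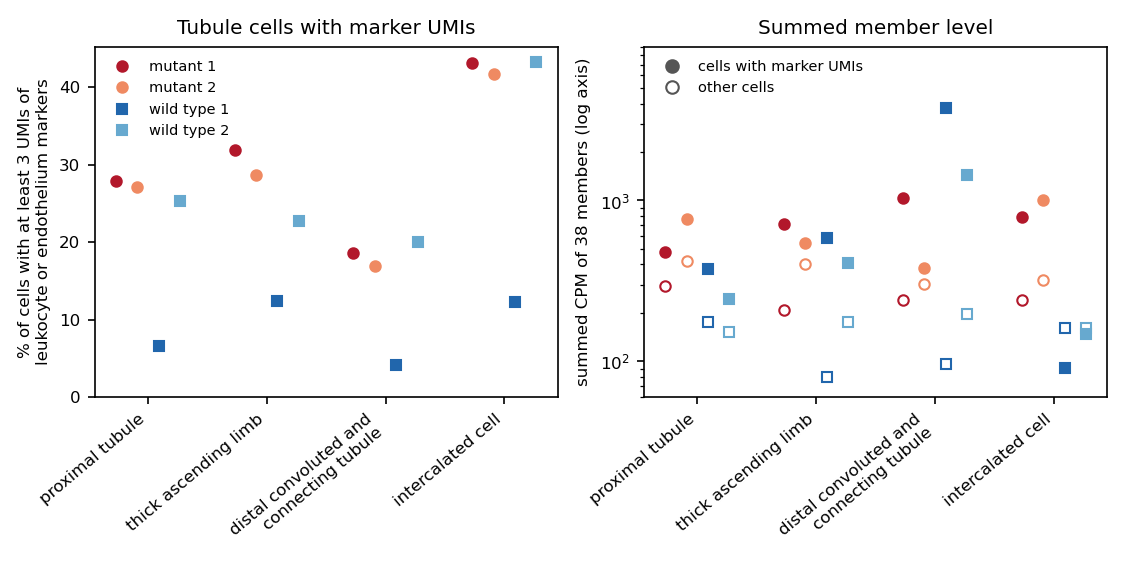
Left, percent of cells with at least 3 UMIs of leukocyte or endothelium markers (y axis) per library in 4 tubule classes. Right, summed member CPM (log scale) in those cells (filled) and in the other cells (open); in the other cells both mutants (circles) lie above both wild types (squares) in all 4 classes.

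In the thick ascending limb, which takes up salt without water, Bst2 rose, and Ifi47 was called from few UMIs. Bst2 measured 79.4 and 52.7 CPM in the mutants, against 22.3 and 17.4 CPM in the wild types, with no overlap (log2 fold change 1.75, SE 0.33, adjusted p = 0.0434, edgeR). Ifi47, an immunity-related GTPase, measured 16.4 and 38.7 CPM in the mutants, against 0 and 2.18 CPM in the wild types, from 13, 33, 0 and 2 UMIs, and 26 of the 33 came from 1 cell of mutant 2. It passed the low-count filter through the 2 mutant libraries alone, so a gene admitted in this way had to differ. The ratio of the counts summed over the libraries of a group, each per UMI of the class, was 19.3 (95% exact counting interval 5.05 to 164). That interval takes each UMI as independent and leaves out the spread between cells and mice, so it is too narrow. The fitted log2 fold change was 4.27 (SE 0.82, adjusted p = 0.0434, edgeR). The class had 97 to 150 cells a library, 0.584% of its 8386 genes were called, and 11 members passed the low-count filter, so no count over them is read. Irgm1 measured 17.6 and 53.9 CPM in the mutants, against 19.1 and 18.5 CPM in the wild types, and Ifitm3 111 and 31.6 CPM, against 43.0 and 5.44 CPM, both with overlap. DESeq2 called 0 members, as did edgeR with doublet calls kept. Cells with leukocyte or endothelium marker UMIs held 77.4% and 52.0% of member UMIs in the mutants, against 74.1% and 57.4% in the wild types. Without them Ifi47 fell under the filter, and Bst2 kept a log2 fold change of 1.87 with an adjusted p of 0.091 by edgeR. Leaving out wild type 1, Ifitm3 and Ifi27l2a had log2 fold changes of 3.71 and 2.56, from 5 and 4 UMIs in wild type 2. Both then passed the low-count filter through the mutants alone. They had to differ there, so these values are not read as support. Without mutant 1 Bst2 had an adjusted p of 0.0517, and without mutant 2 Ifi47 had 0.37, both by edgeR.

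In intercalated cells, the acid and base secreting cells of the collecting duct, Ifitm3 (ENSMUSG00000025492, chromosome 7, 141009586 to 141010770, minus strand) measured 192 and 58.8 CPM in the mutants, against 9.91 and 5.87 CPM in the wild types (log2 fold change 4.00, SE 0.74, adjusted p = 0.0443, edgeR; 0.144% of 6257 genes called). The counts were 229, 33, 3 and 2 UMIs, in 153, 103, 65 and 37 cells. One cell of mutant 1 held 71 of them. Ifitm3 passed the low-count filter here through the 2 mutant libraries alone, so it had to differ. Cells with leukocyte or endothelium marker UMIs, 43.1% and 41.7% of the class in the mutants, against 12.3% and 43.2% in the wild types, held 219 of the 229 and 23 of the 33 in the mutants, against 0 of 3 and 0 of 2 in the wild types, and macrophage markers summed to 1964 and 459 CPM in the mutants, against 357 and 323 CPM, with 6 and 3 of 11 markers at 0 in the wild types. Without those cells no member passed the low-count filter, and the call was lost without mutant 1 (adjusted p = 0.998, edgeR) and without wild type 1 (adjusted p = 0.0617, edgeR). Bst2 measured 69.8 and 32.1 CPM in the mutants, against 6.61 and 2.94 CPM in the wild types. Its counts were 83, 18, 2 and 1 UMIs, and it was not called. Bst2 too passed the low-count filter (20.9 CPM) through the 2 mutant libraries alone, so it had to differ. Irgm1 measured 29.4 and 60.6 CPM in the mutants, against 43.0 and 17.6 CPM in the wild types. In the distal convoluted and connecting tubule 5 members were tested, 0 of 5347 genes (0%) were called by edgeR and 2 by DESeq2, 218 genes had an unadjusted p under 0.05, and Ifitm3 measured 109 and 71.8 CPM in the mutants, against 26.1 and 35.4 CPM in the wild types. There Bst2 measured 57.9 and 36.6 CPM, against 34.8 and 13.8 CPM, and Ifi27l2a 220 and 21.1 CPM, against 28.3 and 80.6 CPM. DESeq2 called no member there, and 1 had an unadjusted p under 0.05. Leaving out mutant 2, Ifi27l2a had a log2 fold change of 2.02 by edgeR. Of its 99 UMIs in mutant 1, 95 came from cells with leukocyte or endothelium marker UMIs, and 1 cell held 56.

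In macrophages, where the members are abundant, all 38 were tested and 34 had a positive log2 fold change, with a median log2 fold change of 0.60, but 0 were called; 10 had an unadjusted p under 0.05, as did 674 of 12503 genes, DESeq2 called 0, and 0.016% of the genes were called. Ifitm3 measured 2096 and 1243 CPM in the mutants, against 933 and 420 CPM in the wild types. Ifi27l2a measured 1703 and 884 CPM in the mutants, against 799 and 440 CPM in the wild types. Bst2 measured 999.6 and 647 CPM in the mutants, against 509 and 327 CPM in the wild types. The groups did not overlap for any of these 3, nor for 24 members in all, against 23.7% of all genes with both mutants higher, and the adjusted p of each of the 3 was 0.726 (edgeR). Isg20 had the largest difference, at 35.0 and 27.8 CPM in the mutants, against 12.4 and 5.48 CPM in the wild types (log2 fold change 1.54, SE 0.37, adjusted p = 0.726, edgeR). Wild type 2 had 57 macrophages; without it 0 members were called and the median was 0.47, and without wild type 1 there were 4 calls, among 350 of 13379 genes, and a median of 1.02, against 0.17 over all genes.

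Macrophages came from 5 clusters in unequal shares. The cluster led by Negr1, Mmp12 and Mmp13 held 16.8% and 38.5% of macrophages in the mutants, against 60.4% and 47.4% in the wild types. The one led by Ccl8 and Pf4 held 28.0% and 37.2% in the mutants, against 14.2% and 29.8% in the wild types, and the one led by C1qb 40.0% and 16.8%, against 15.9% and 8.77%. Within the first, members summed to 4865 and 4355 CPM in the mutants, against 3739 and 3521 CPM in the wild types. Within the second they summed to 6736 and 6387 CPM in the mutants, against 5129 and 4749 CPM in the wild types. Both mutants were thus higher within each, as they were in the cluster led by C1qb (6013 and 5759 CPM, against 5585 and 3448 CPM) and in the one led by heat shock genes (5883 and 6735 CPM, against 5254 and 3474 CPM), where wild type 2 gave 5 and 7 cells.

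In endothelium, the class with the highest levels, most members were at similar levels in the mutants and wild type 1 and lower in wild type 2. Ifitm3 measured 3795 and 3691 CPM in the mutants, against 3226 and 777 CPM in the wild types. Rsad2 measured 1319 and 1175 CPM in the mutants, against 1242 and 844 CPM in the wild types, and Bst2 1102 and 1038 CPM, against 1117 and 463 CPM. Of 37 members tested, 0 were called by edgeR or DESeq2, 2 had an unadjusted p under 0.05, as did 341 of 11674 genes, and 0% of the genes were called. Ifi27l2a measured 230 and 210 CPM in the mutants, against 70.5 and 51.0 CPM in the wild types, the largest difference in this class (log2 fold change 1.80, SE 0.39, adjusted p = 0.931, edgeR). Different clusters held the class: the shallow cluster led by Ldb2 and Flt1 held 34.9% and 25.1% of endothelial cells in the mutants, against 17.3% and 76.3% in the wild types, and the cluster led by Plvap 52.8% and 64.2%, against 77.9% and 13.2% (5 cells in wild type 2). Members summed to 6703 and 7199 CPM in the mutants within the first, against 7433 and 5147 CPM in the wild types, with overlap, and to 11932 and 11856 CPM in the mutants within the second, against 10467 and 7596 CPM in the wild types. Wild type 2 rests on 38 endothelial cells and 1222 member UMIs; without it the members' median was -0.06, and without wild type 1 it was 1.04 with 5 calls, among 432 of 12143 genes with a median of 0.15.

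In monocytes Ifitm3 measured 6384 and 4138 CPM in the mutants, against 3851 and 2583 CPM in the wild types, and the groups did not overlap. Ifi27l2a measured 2590 and 1110 CPM in the mutants, against 1183 and 1242 CPM in the wild types, and Bst2 523 and 198 CPM, against 224 and 123 CPM, both with overlap. In dendritic cells Ifitm3 measured 2115 and 2042 CPM in the mutants, against 1362 and 641 CPM in the wild types. Ifi27l2a measured 734 and 510 CPM there in the mutants, against 430 and 319 CPM in the wild types, and Bst2 342 and 266 CPM, against 220 and 182 CPM. These 3 showed no overlap in dendritic cells. Both mutants were above both wild types there for 19 members in all, as they were for 23% of all genes. Of the 2 dendritic cell clusters, the one led by Cd209a summed to 5157 and 5840 CPM in the mutants, against 4619 and 2719 CPM in the wild types, while the one led by Xcr1 overlapped, at 2737 and 2510 CPM in the mutants, against 1956 and 3317 CPM in the wild types. No member was called by edgeR or DESeq2 in either class: in monocytes 27 of 36 members were positive, 4 had an unadjusted p under 0.05, as did 311 of 9297 genes, and 0.0215% of the genes were called, and in dendritic cells 32 of 38 were positive, 7 had an unadjusted p under 0.05, as did 535 of 11361 genes, and 0% of the genes were called. Leaving out wild type 1 gave 1 call in monocytes, Isg20, among 120 of 9136 genes, and leaving out mutant 1 gave 1 in dendritic cells, Gbp2, among 17 of 11701.

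Among lymphocytes, T cells had positive log2 fold changes for 36 of 37 members (median 0.77) and NK cells for 31 of 37 (median 0.71), with 0 calls by edgeR or DESeq2 in both. At an unadjusted p under 0.05 there were 6 members among 447 of 11920 genes in T cells and 13 among 429 of 8705 genes in NK cells, and 0% of the genes were called in both. Ifi27l2a measured 816 and 805 CPM in mutant T cells, against 478 and 475 CPM in wild-type T cells, with no overlap. Bst2 measured 269 and 189 CPM in mutant T cells, against 163 and 75.6 CPM in wild-type T cells, while Ifi47 measured 308 and 313 CPM, against 308 and 107 CPM, and overlapped. In NK cells Ifitm3 measured 308 and 341 CPM in the mutants, against 138 and 63.6 CPM in the wild types. Ifi27l2a measured 248 and 360 CPM in mutant NK cells, against 123 and 25.5 CPM in wild-type NK cells, and Ifi47 423 and 299 CPM, against 350 and 120 CPM. T cells also came from 5 clusters in unequal shares. The cluster led by Tnfrsf4, with Foxp3 among its leading genes, held 10.1% and 17.6% of T cells in the mutants, against 6.86% and 51.5% in the wild types, and members summed there to 3533 and 3840 CPM in the mutants, against 2878 and 2402 CPM in the wild types. The cluster led by Tcrg-C4 held 3.77% and 22.1% in the mutants, against 3.99% and 5.39% in the wild types, and there the sums overlapped, at 3430 and 2927 CPM in the mutants, against 5397 and 1732 CPM in the wild types. The NK cells of wild type 2 numbered 49. Leaving out wild type 1, the members' median log2 fold change was 1.60 in NK cells and 1.07 in T cells. In NK cells Isg20, with 3 UMIs in wild type 2, then passed the low-count filter through the mutants alone. It had to differ there, so the NK cell median of that fit is not read as support. Leaving out wild type 2, the medians in NK cells and T cells were 0.46 and 0.33, and leaving out mutant 2 they were 0.83 and 0.55.

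B cells and plasma cells had the lowest member levels of the immune classes. Ifi27l2a measured 465 and 239 CPM in mutant B cells, against 292 and 166 CPM in wild-type B cells, Irf1 66.6 and 126 CPM, against 103 and 118 CPM, and Bst2 135 and 74.3 CPM, against 71.8 and 50.6 CPM. Of 30 members tested, 21 were positive, 4 had an unadjusted p under 0.05, as did 368 of 9819 genes, 0 were called by edgeR or DESeq2, and 0% of the genes were called. The B cell cluster led by Sox5 held 16.9% and 52.2% of B cells in the mutants, against 21.2% and 93.0% in the wild types, so different clusters held the class. In plasma cells, where 15 members passed the filter and wild type 1 had 21 cells, Isg20 measured 152 and 117 CPM in the mutants, against 140 and 58.9 CPM in the wild types. Bst2 measured 187 and 174 CPM there in the mutants, against 103 and 93.6 CPM in the wild types, and Ifi27l2a 126 and 67.3 CPM, against 67.8 and 108 CPM. None was called (edgeR and DESeq2; 1 at an unadjusted p under 0.05, as were 405 of 6349 genes; 0.0473% of the genes called). Leaving out wild type 1, Ifitm3 had log2 fold changes of 5.10 in B cells and 5.60 in plasma cells. In B cells, with 26 UMIs in wild type 2, it then passed the low-count filter through the mutants alone. It had to differ there. The plasma cell fit likewise held wild type 2 as its only wild type, and neither of these 2 values is read as support.

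Members differed in the size and sign of their log2 fold changes across the 8 classes with at least 30 members tested. These classes share the same 4 mice, and 25.7% of the 7661 genes tested in all of them had a positive log2 fold change in all 8, so agreement between classes is not read here as support. The exonuclease Isg20 had log2 fold changes of 0.34 to 2.03 and Irf7, the amplifier of type I interferon production, of 0.58 to 1.70. Isg20 measured 106 and 109 CPM in mutant T cells, against 50.9 and 23.9 CPM in wild-type T cells. In NK cells it measured 142 and 102 CPM in the mutants, against 42.2 and 7.64 CPM in the wild types. The signalling member Stat2 had log2 fold changes of -0.57 to 0.17 and the RNA sensor Ifih1 of -0.98 to 0.33. Stat2 measured 78.8 and 73.3 CPM in mutant endothelium, against 82.9 and 114 CPM in wild-type endothelium, with the higher levels in the wild types.

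Whether the genotype difference of a member varied between classes was tested in 1 edgeR fit over the 12 classes, with the library as a block. No member was called (lowest adjusted p = 0.822, Trim30a; 7 at an unadjusted p under 0.05, edgeR), and 0% of 14320 genes were called, so the calls in tubule classes were not shown to differ from the missing calls elsewhere. Without wild type 1, 21 genes were called in this test, none of them members. DESeq2 was not run for this test.

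Of the other genes of the pathway, the type I and lambda ligands were almost absent. Of 19 ligand genes, 16 of the type I and lambda interferons had no UMI, Ifnb1 had 3 and 0 UMIs in the mutants, against 5 and 0 in the wild types, and Ifnk 1 and 0, against 0 and 25. Ifng had 498 and 1679 UMIs in the mutants, against 347 and 526 UMIs in the wild types, and T cells held 78.8% of them. It measured 87.3 and 91.1 CPM in mutant T cells, against 43.0 and 66.5 CPM in wild-type T cells (log2 fold change 0.70, SE 0.31, adjusted p = 0.746, edgeR). In NK cells it measured 131 and 136 CPM in the mutants, against 125 and 45.8 CPM in the wild types. None of the 15 receptor and signalling genes or of the 21 sensing genes was called in any class by edgeR, and in the proximal tubule their medians were 0.15 (9 of 15 positive) and 0.05 (11 of 17 positive). Of 75 further interferon-induced genes, 60 were tested in the proximal tubule, 55 were positive with a median of 1.01, and 1 was called: Phf11b measured 11.2 and 7.59 CPM in the mutants, against 1.78 and 1.42 CPM in the wild types (log2 fold change 2.59, SE 0.47, adjusted p = 0.0436, edgeR). In macrophages, 45 of 71 tested on that list were positive (median 0.15), and 0 were called.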

How the data were processed

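Single-cell libraries of 2 mutant and 2 wild-type mouse kidneys were analysed. The deposited files hold UMI counts per gene and called cell barcode, the filtered output of Cell Ranger per the file headers, which the authors made against mm10 per the submitters' processing notes. The members, the gene lists and the comparisons were chosen with earlier results of these data known. Barcodes under 200 genes or 500 UMIs, or over 50% mitochondrial UMIs, and doublet calls were removed, and 30428 of 37041 barcodes remained; library totals ran from 42121175 to 70013861 UMIs. Cells were clustered with scanpy 1.11.5 (2000 variable genes without interferon-induced genes, 30 components, 15 neighbours, Leiden resolution 1), and clusters were named from marker lists. No correction for free RNA was made.

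Counts were summed per mouse and class where every library had at least 20 cells, filtered with filterByExpr, scaled by TMM and tested with edgeR 4.0.16 (R 4.3.3) by the quasi-likelihood test, with Benjamini-Hochberg adjustment over all genes of the class. DESeq2 1.42.0, other scalings and filters, a replicate block and leaving out each mouse were tried as alternatives. Values per mouse are given for members called in a class and for the 3 most abundant members of each tested class, and of the pathway lists for genes called in a class, at most 3 per list and class; other members given by value were chosen after their values were seen. Promoters were read from RefSeq tables (GRCm38.p6), and gene positions from the GRCm38 annotation. Intervals cover counting error only.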

Additional observations from a re-analysis of the deposited data

How the results depend on the processing

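Over the alternatives run, the calls of Isg15 and Ifi27l2a in the proximal tubule and of Bst2 in the thick ascending limb held in 33 values and were lost in 14, with 0 changes of sign. Ifi47 and Ifitm3 are not counted, since the low-count filter fixed their sign. Ifitm3 in intercalated cells and Ifi47 in the thick ascending limb had no value with marker-carrying tubule cells left out, since they fell below the filter. Numbers of members called changed as follows. In the proximal tubule there were 0 with library totals, 11 with no filter on low counts (among 373 of 21564 genes), 6 with DESeq2, 0 with doublet calls kept, 4 with interferon genes kept for clustering (among 121 of 13285), 8 with marker-carrying cells left out, and 0 to 17 leaving out 1 mouse. In the thick ascending limb there were 0 with library totals, DESeq2, doublet calls kept, interferon genes kept or marker-carrying cells left out, 3 with no filter, and 2 to 4 leaving out 1 mouse. In intercalated cells there were 0 with library totals, a mitochondrial limit of 25%, at least 1500 UMIs per cell, marker-carrying cells left out or mitochondrially encoded genes left out, 5 with no filter, 2 with doublet calls kept, and 0 to 1 leaving out 1 mouse. With no filter on low counts there was 1 each in B cells (among 70 of 18965 genes), dendritic cells (59 of 18502) and distal convoluted and connecting tubule (78 of 14851). There was also 1 each in endothelium (70 of 18915) and plasma cells (130 of 17311), with 5 in NK cells (44 of 16200) and 2 in T cells (152 of 20443). The unfiltered calls in the thick ascending limb were among 489 of 16876 genes, and those in intercalated cells among 95 of 15810. With doublet calls kept, the 2 in intercalated cells were Ifitm3 and Bst2, among 31 of 6370 genes. Both genes passed the low-count filter through the mutants alone with doublet calls removed, so these 2 calls are not read as support. Leaving out 1 mouse gave 0 to 12 in NK cells, 0 to 5 in endothelium, 0 to 4 in macrophages and in T cells, and 0 to 1 in B cells, dendritic cells, monocytes, plasma cells and the distal convoluted and connecting tubule. Some calls made with wild type 1 left out were of members that passed the low-count filter through the mutants alone. Among them were Isg20 in NK cells and Ifitm3 and Ifi27l2a in the thick ascending limb, which are not read as support. The interaction test called 0 members in every setting run. The cause of these changes was not tested in any setting.

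Same-numbered libraries share only a number, and their deviations correlated between -0.268 (intercalated cells) and 0.282 (monocytes). With the replicate block, 9 members were called in the proximal tubule (among 186 of 13199 genes, against 51 without the block), 11 in macrophages (among 326 of 12503, against 2), 0 in the thick ascending limb and 1 in intercalated cells. With crossed numbers, there were 4 calls in the proximal tubule (among 60 genes), 2 in intercalated cells (among 66) and 0 in the distal convoluted and connecting tubule. The 2 in intercalated cells were Ifitm3 and Bst2, both admitted by the filter through the mutants alone, so they are not read as support. The alternatives on marker-carrying cells, mitochondrially encoded genes, the heat shock cluster and crossed numbers were chosen after seeing the data. With 2 mice a group, a difference had to be large to pass; wild type 2 rests on 38 endothelial cells and 57 macrophages, and the calls of Ifi47 in the thick ascending limb and Ifitm3 in intercalated cells rest on few wild-type UMIs.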
